A study of Mus musculus with 12 samples.

Results

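The 10 genes described here encode proteins of the growth cone membrane and of immature neurons. They are Gap43, Basp1, Marcks, Marcksl1, Igfbpl1, Cd24a, Draxin, Sox4, Sox11 and Sox12. They were taken by symbol from a deposited table of 23253 genes, and all 10 were found in it and passed the filter on low counts that left 17909 genes for testing. RNA sequencing was done on 12 libraries labelled as FACS-sorted cortical neurons of C57BL/6 mice, in 4 groups of 3. The siRNA-labelled stroke group (libraries 1 to 3) came from adult mice with a stroke and an siRNA against GDF10, a secreted growth factor of the TGF-beta superfamily. The stroke group (libraries 4 to 6) came from adult mice with a photothrombotic stroke, made with rose bengal and 15 min of cold light over a cortical spot of 2 mm. The labels give the siRNA-labelled stroke group the same 15 min of illumination and 2 mm spot. The P4 group (libraries 4 to 6) is given as an animal control, and the adult control group (libraries 1 to 3) had no stroke. The labels describe every mouse as adult, P4 included, and do not explain the name P4. They give neither the ages, the time after stroke, nor the gate used in the sort, and do not say whether the libraries of a group came from separate animals, so p-values measure the spread between these libraries, which may be technical. The growth cone set and the stroke comparisons of these same libraries were known when the genes were chosen, so the values and adjusted p below describe the genes and are not independent evidence about them.

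GAP43, BASP1 and MARCKS are acidic proteins tethered to the inner face of the plasma membrane. They bind calmodulin and membrane phosphoinositides, are phosphorylated by protein kinase C, and shape the actin cortex of the growth cone, the motile tip of a growing axon. SOX4, SOX11 and SOX12 form the SoxC group of HMG-box transcription factors, which act in newborn neurons to turn on genes of the neuronal cytoskeleton. In the cortex most of these genes are known for high expression while axons grow and low expression in the adult, and Gap43 is a classic marker of axon growth and of sprouting after injury.

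Total counts were between 10517638 (adult control 3) and 48633350 (P4 4) per library. The label of sorted neurons was checked against marker genes listed by cell type, which were chosen with earlier results of these data known. In siRNA-labelled stroke, stroke and adult control, 12 oligodendrocyte markers took 6.61 to 10.6%, 5.28 to 6.54% and 3.93 to 9.44% of all counts, whereas 15 pan-neuronal markers took 0.168 to 0.280%, 0.176 to 0.220% and 0.227 to 0.665%. In P4 the oligodendrocyte markers took 0.0118 to 0.0317% and the pan-neuronal markers 0.647 to 0.945%. The libraries of the 3 adult groups thus carried more counts on oligodendrocyte markers than on neuronal ones, and those of P4 the reverse. Astrocyte markers took 0.0894 to 0.154% in siRNA-labelled stroke, 0.0883 to 0.124% in stroke, 0.0383 to 0.0636% in P4 and 0.436 to 0.645% in adult control. Microglia and macrophage markers took 0.171 to 0.313%, 0.0398 to 0.137%, 0.00250 to 0.00432% and 0.0803 to 0.122% in the same order of groups. Neutrophil and monocyte, erythroid, ependymal, endothelial and mural markers each took at most 0.0294% in any library. Gdf10, the gene named by the siRNA, had 8, 7 and 1 raw counts in siRNA-labelled stroke and 0, 5 and 0 in stroke, so the label could not be checked by a lower level (log2 fold change 2.34, edgeR adjusted p = 0.778). Counts on Rn45s, the ribosomal RNA precursor, took 0.304 to 2.72% in siRNA-labelled stroke, 2.11 to 2.44% in stroke, 0.00984 to 0.349% in P4 and 0.0964 to 2.08% in adult control. Adult control 3 stood apart from its group, with correlations of log2 CPM across genes of 0.753 and 0.681 to the other two libraries, the lowest for any other pair within a group being 0.873. P4 6 was also further from its group, at 0.897 to P4 4 and 0.895 to P4 5, which had 0.989 between them. Libraries 1 to 3 hold siRNA-labelled stroke and adult control, and libraries 4 to 6 stroke and P4. If the numbers mark a batch, it cannot be told apart from the group where stroke or P4 is set against adult control, or siRNA-labelled stroke against stroke.

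Levels are CPM, read counts put on one library size by TMM factors. A gene is called changed at an adjusted p under 0.05 over all 17909 genes in edgeR's quasi-likelihood test, and log2 fold changes are given with their standard error (SE). In bulk RNA, fewer cells of a type and less RNA per cell cannot be told apart, which applies to every level below.

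Marcksl1 was the membrane protein gene that changed after stroke. It encodes MARCKS-like protein 1, the close relative of MARCKS that binds and bundles actin, and lies on the plus strand of chromosome 4 (mm10, 129513581 to 129515981). It had 59.7, 63.0 and 88.4 CPM in siRNA-labelled stroke, 115, 147 and 202 CPM in stroke, 258, 248 and 189 CPM in P4 and 27.1, 36.5 and 4.45 CPM in adult control. All stroke libraries lay above all adult control libraries, all siRNA-labelled libraries lay between those groups, and stroke overlapped P4. Marcksl1 rose in stroke against adult control by 2.76 on the log2 scale (SE 0.55, edgeR adjusted p = 0.0345). This call was lost without stroke 4, 5 or 6 (adjusted p = 0.0858, 0.107 and 0.161) and without adult control 1 (adjusted p = 0.119), with a log2 fold change of 2.53 to 2.92 in those fits. Without adult control 3, which had the lowest level, it was 2.28 (adjusted p = 0.00847). The Rn45s share in adult control, at 0.427, 2.08 and 0.0964%, ran in the same order as Marcksl1 and Sox4 there. Gap43, Basp1, Marcks, Cd24a, Sox11 and Sox12 ran in the reverse order. P4 6 had the lowest Rn45s share in P4, at 0.00984%. That library held the highest P4 level of Gap43, Basp1, Marcks and Cd24a, and the lowest of Marcksl1, Igfbpl1, Draxin, Sox4 and Sox12. The part of this share in the differences was not tested. Against P4, stroke differed by -0.58 (SE 0.52, adjusted p = 0.505). Against stroke, siRNA-labelled stroke gave -1.13 (SE 0.53, adjusted p = 0.666), and against adult control 1.62 (SE 0.53, adjusted p = 0.396).

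Gap43 (chromosome 16, 42248552 to 42340651, minus strand) had 7.74, 11.8 and 14.0 CPM in siRNA-labelled stroke, 48.0, 18.2 and 27.3 CPM in stroke, 644, 812 and 833 CPM in P4 and 24.2, 11.3 and 25.5 CPM in adult control. P4 stood far above every adult library, stroke overlapped adult control, and all siRNA-labelled libraries lay below all stroke libraries. Gap43 rose in P4 by 5.23 against adult control (SE 0.48, adjusted p = 3.12e-06). Stroke was 0.62 from adult control (SE 0.40, adjusted p = 0.469), and siRNA-labelled stroke was -1.48 from stroke (SE 0.41, adjusted p = 0.485), neither of them called. Stroke fell by 4.61 against P4 (SE 0.46, adjusted p = 5.30e-06).

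Basp1, which encodes the brain acid soluble protein and works beside GAP43 at the membrane (chromosome 15, 25363277 to 25413764, minus strand), had 128, 103 and 65.9 CPM in siRNA-labelled stroke, 74.6, 98.5 and 155 CPM in stroke, 634, 553 and 4631 CPM in P4 and 153, 44.8 and 222 CPM in adult control. The 3 adult groups overlapped, and all P4 libraries lay above every adult library. P4 6 stood far above the rest. Basp1 rose in P4 by 3.79 against adult control (SE 0.79, adjusted p = 0.00352), and the lowest value on leaving out a library was 2.11, without P4 6. Stroke fell by 4.15 against P4 (SE 0.80, adjusted p = 0.00163), and by 2.45 without P4 6. In stroke against adult control the log2 fold change was -0.36 (SE 0.70, adjusted p = 0.83).

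Marcks encodes the main MARCKS protein, a protein kinase C substrate that holds phosphoinositides at the membrane, and lies on the minus strand of chromosome 10 (37133243 to 37138926). It had 543, 930 and 239.9 CPM in siRNA-labelled stroke, 659, 617 and 1449 CPM in stroke, 741, 611 and 2469 CPM in P4 and 321, 192 and 556 CPM in adult control. All stroke and all P4 libraries lay above all adult control libraries, stroke 6 and P4 6 being the highest of their groups. Neither difference was called: stroke against adult control gave 1.35 (SE 0.60, adjusted p = 0.293) and P4 against adult control 1.84 (SE 0.61, adjusted p = 0.0511). The P4 difference passed without P4 4, P4 5 or adult control 3 (adjusted p = 0.0466, 0.0332 and 0.0253), with no filter on low counts (0.0314) and with DESeq2 (0.0253), and its log2 value without P4 6 was 0.95.

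**Figure D1:**
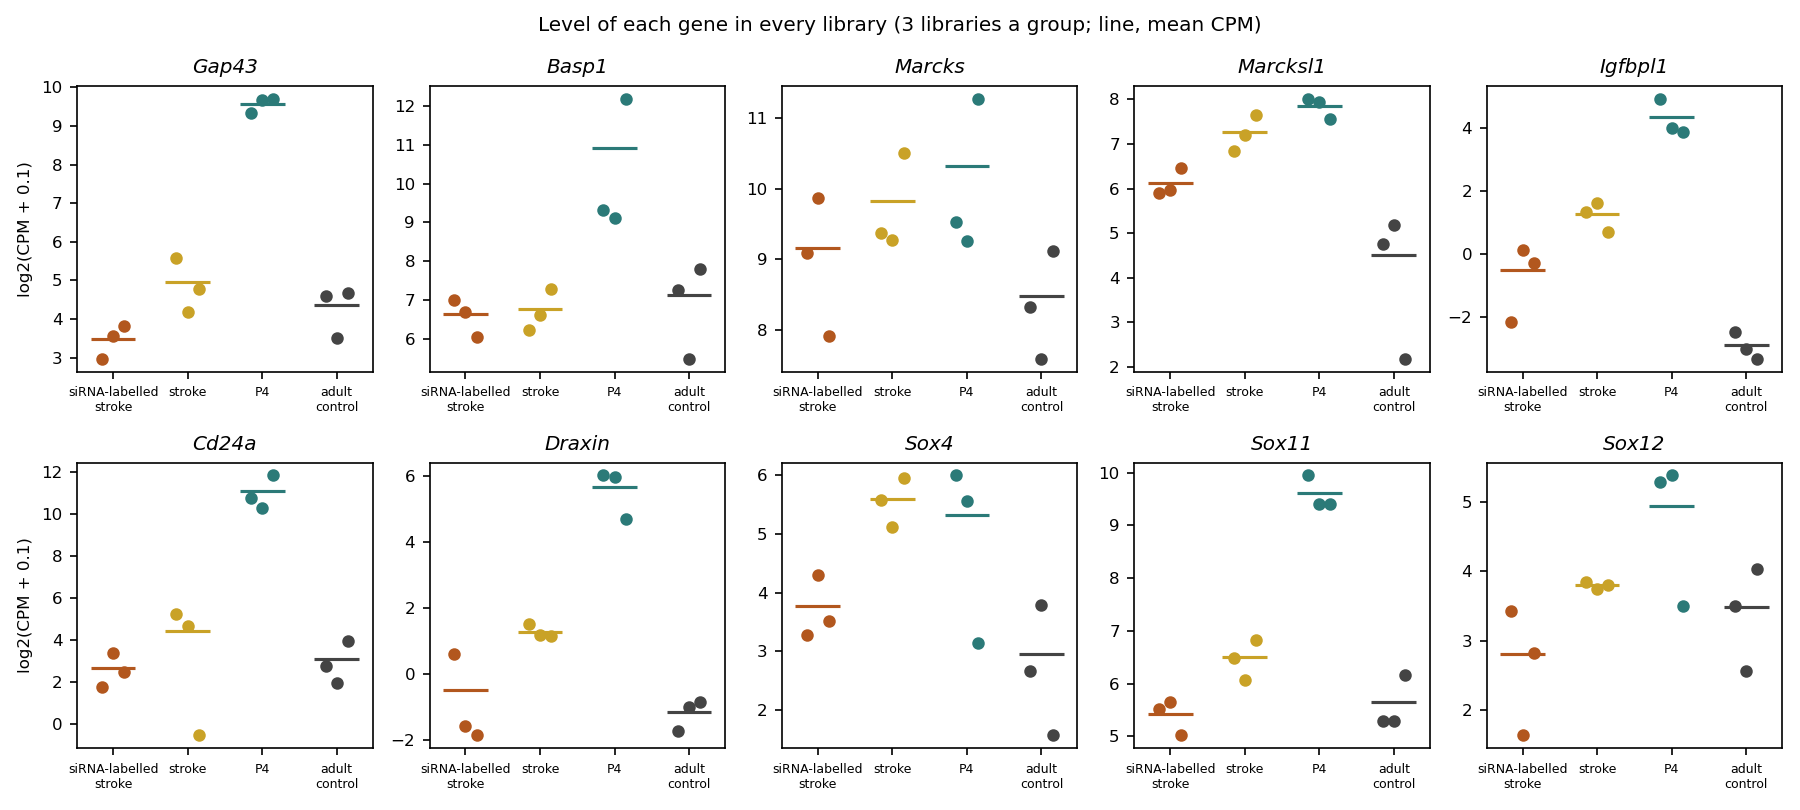
Level of each of the 10 genes in every library, as log2(CPM + 0.1), with a point per library, 3 libraries a group, and a line at log2 of the group's mean CPM plus 0.1. P4 stands above the adult groups in Gap43, Basp1, Igfbpl1, Cd24a, Draxin and Sox11, while Marcksl1 and Sox4 in stroke reach the P4 range.

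Among the secreted and surface proteins, Igfbpl1, which encodes a secreted relative of the insulin-like growth factor binding proteins (chromosome 4, 45809507 to 45826827, minus strand), was the gene closest to absent in the adult control. Its raw counts were 2, 17 and 25 in siRNA-labelled stroke, 70, 93 and 28 in stroke, 1598, 801 and 229 in P4 and 2, 1 and 0 in adult control. That is 0.124, 0.984 and 0.722 CPM, then 2.42, 2.98 and 1.52, then 29.9, 15.9 and 14.5, and then 0.0793, 0.0248 and 0 CPM. The groups did not overlap in CPM, in the order P4, stroke, siRNA-labelled stroke and adult control. Between the last 2 groups this rests on library size, since siRNA 1 and adult control 1 each had 2 raw counts. Igfbpl1 rose in stroke, with 191 counts against 3 in adult control, a depth-scaled ratio of 60.1 with a 95% exact interval of 20.3 to 294 for counting error (edgeR adjusted p = 0.0226). Amplified reads are not independent molecules, so such intervals cover counting error only. The call was lost without stroke 4 or 5 (adjusted p = 0.0686 and 0.0784) and without adult control 1 (0.0862). In P4 the ratio to adult control was 543 (95% interval 186 to 2637, adjusted p = 7.44e-05), and stroke fell by 3.12 on the log2 scale against P4 (SE 0.83, adjusted p = 0.0147). That fall was not called without stroke 6 (adjusted p = 0.0698) or P4 4 (0.123). The siRNA-labelled group gave -1.90 against stroke (SE 0.81, adjusted p = 0.647), and a count ratio of 16.0 to adult control (44 counts against 3, 95% interval 5.13 to 80.5, adjusted p = 0.271).

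Draxin (chromosome 4, 148098437 to 148131139, minus strand) encodes a secreted repellent of axons that binds the netrin receptor DCC and antagonises Wnt signalling through LRP6. It had 1.42, 0.232 and 0.173 CPM in siRNA-labelled stroke, 2.73, 2.15 and 2.12 CPM in stroke, 65.1, 63.4 and 25.8 CPM in P4 and 0.198, 0.398 and 0.456 CPM in adult control. All stroke libraries lay above both other adult groups and below P4. The stroke difference from adult control was 2.76 (SE 0.78, adjusted p = 0.128) and was not called by edgeR, whereas DESeq2 gave 0.0116. For siRNA-labelled stroke against stroke the value was -1.98 (SE 0.75, adjusted p = 0.607) and -3.53 without siRNA 1, which alone of its group lay above all adult control libraries. Draxin rose in P4 by 7.22 against adult control (SE 0.92, adjusted p = 6.48e-05), and stroke fell by 4.46 against P4 (SE 0.79, adjusted p = 0.000859).

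Cd24a encodes a small glycoprotein anchored to the surface of immature neurons by a lipid and lies on the plus strand of chromosome 10 (43579169 to 43584265). It had 3.28, 10.5 and 5.43 CPM in siRNA-labelled stroke, 38.2, 25.6 and 0.597 CPM in stroke, 1715, 1234 and 3631 CPM in P4 and 6.70, 3.85 and 15.3 CPM in adult control. The stroke group held both the highest adult level and the lowest of all 12 libraries, stroke 6, with 11 raw counts. Cd24a rose in P4 by 8.02 against adult control (SE 1.18, adjusted p = 0.000228), and it alone took 0.135 to 0.327% of all counts in P4. In stroke against adult control the value was 1.34 (SE 0.89, adjusted p = 0.48). It was 0.65 without stroke 4, 1.93 without stroke 6 and 2.04 without adult control 3. Mouse Cd24a has intronless copies elsewhere in the genome, so the assignment of its reads is uncertain.

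Of the SoxC genes, which carry no introns, Sox4 had the stroke pattern closest to that of Marcksl1. The 250 bases before the RefSeq start of each SoxC gene and of Marcksl1 are printed because their levels moved differently across the groups (RefSeq, GRCm38.p6). Capitals mark matches on either strand to CCAAT, the CCAAT box, and to GGGCGG, the GC box. TATAAA and the HMG-box letters ACAAAG and ACAATG were searched too, with no match in these 4 windows.
Sox4, chr13:28953700-28953949, minus strand: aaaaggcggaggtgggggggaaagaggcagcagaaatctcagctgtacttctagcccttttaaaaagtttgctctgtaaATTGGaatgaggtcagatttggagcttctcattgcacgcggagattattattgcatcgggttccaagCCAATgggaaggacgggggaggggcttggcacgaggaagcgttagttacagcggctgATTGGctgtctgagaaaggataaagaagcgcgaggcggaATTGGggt
Sox11, chr12:27342719-27342968, minus strand: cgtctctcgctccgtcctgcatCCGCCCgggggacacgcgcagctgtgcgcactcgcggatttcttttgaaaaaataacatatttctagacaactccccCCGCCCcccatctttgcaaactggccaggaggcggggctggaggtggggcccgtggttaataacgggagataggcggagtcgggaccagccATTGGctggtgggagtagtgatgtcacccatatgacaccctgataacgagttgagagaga
Sox12, chr2:152398047-152398296, minus strand: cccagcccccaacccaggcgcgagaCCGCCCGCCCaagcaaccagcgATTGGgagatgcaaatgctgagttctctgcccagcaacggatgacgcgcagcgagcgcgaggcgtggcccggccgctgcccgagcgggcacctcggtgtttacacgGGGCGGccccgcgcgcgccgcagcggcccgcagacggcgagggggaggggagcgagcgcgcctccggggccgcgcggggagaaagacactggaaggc
Marcksl1, chr4:129513331-129513580, plus strand: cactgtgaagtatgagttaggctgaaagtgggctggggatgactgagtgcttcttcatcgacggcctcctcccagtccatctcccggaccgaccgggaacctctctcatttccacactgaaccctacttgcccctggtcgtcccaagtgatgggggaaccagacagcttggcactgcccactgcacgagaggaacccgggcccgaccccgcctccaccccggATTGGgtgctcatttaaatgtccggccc
The Sox4 window held 4 matches to CCAAT, which began 171, 104, 47 and 8 bases before the start, and none to GGGCGG. Sox11 had 1 CCAAT match at 60 bases and 2 GGGCGG matches at 228 and 151 bases. Sox12 had 1 CCAAT match at 203 bases and 3 GGGCGG matches at 225, 221 and 97 bases, of which the first 2 overlap. Marcksl1 had 1 CCAAT match at 28 bases. Of 32851 RefSeq promoter windows of the same length, 33.8% held CCAAT, 32.7% GGGCGG, 12.4% TATAAA, 16.5% ACAAAG and 10.7% ACAATG. The windows differed in base composition: Sox4 had 11 CpG and 50.8% GC, Sox11 17 and 58.0%, Sox12 35 and 74.4%, and Marcksl1 12 and 60.4%, against a median of 6 CpG and 52.4% GC over all windows. RefSeq windows were matched for 6 of the 10 genes, the other two of them being Basp1, with 4 GGGCGG matches, and Draxin, with 2 GGGCGG and 2 ACAAAG matches. A match describes letters in a window and is not a bound site.

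Sox4 (chromosome 13, 28948919 to 28953699) had 9.59, 19.6 and 11.3 CPM in siRNA-labelled stroke, 47.8, 34.5 and 62.1 CPM in stroke, 63.9, 47.1 and 8.68 CPM in P4 and 6.23, 13.7 and 2.85 CPM in adult control. All stroke libraries lay above both other adult groups, and stroke overlapped P4, where P4 6 was low. In stroke against adult control the log2 fold change was 2.65 (SE 0.70, adjusted p = 0.109), not called. It was called without adult control 2 (adjusted p = 0.037) and with DESeq2 (0.00333). The siRNA-labelled libraries gave -1.83 against stroke (SE 0.68, adjusted p = 0.602), and stroke was 0.27 from P4 (SE 0.66, adjusted p = 0.839). Sox4 rose in P4 by 2.38 against adult control (SE 0.69, adjusted p = 0.0283), with libraries that overlapped. That call was lost without P4 4 or 5 (adjusted p = 0.136 and 0.0773) and without adult control 1 or 3 (0.0946 and 0.0618).

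Sox11 (chromosome 12, 27334268 to 27342718, minus strand) had 45.7, 50.1 and 32.3 CPM in siRNA-labelled stroke, 89.2, 67.1 and 114 CPM in stroke, 986, 679 and 680.0 CPM in P4 and 39.2, 38.9 and 71.7 CPM in adult control. P4 stood far above every adult library, and siRNA-labelled stroke lay below stroke, which overlapped adult control. Sox11 rose in P4 by 3.97 against adult control (SE 0.38, adjusted p = 5.19e-06), and stroke fell by 3.12 against P4 (SE 0.37, adjusted p = 2.37e-05). Stroke against adult control gave 0.85 (SE 0.34, adjusted p = 0.246), and siRNA-labelled stroke against stroke -1.08 (SE 0.34, adjusted p = 0.555). Sox12, the SoxC member known for weak effects when lost alone in the mouse (chromosome 2, 152393611 to 152398046, minus strand), had 10.7, 3.01 and 6.99 CPM in siRNA-labelled stroke, 14.3, 13.4 and 13.9 CPM in stroke, 38.9, 41.6 and 11.2 CPM in P4 and 11.2, 5.84 and 16.3 CPM in adult control. No Sox12 difference was called: P4 against adult control gave 1.47 (SE 0.62, adjusted p = 0.128) and stroke against adult control 0.32 (SE 0.61, adjusted p = 0.825).

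The make-up of SoxC expression differed by group. Per exonic length (RPKM), Sox4 made up 20.2, 37.8 and 30.1% of the summed SoxC level in siRNA-labelled stroke, 41.7, 39.4 and 43.5% in stroke, 9.46, 9.74 and 2.10% in P4 and 15.2, 32.3 and 4.61% in adult control. The stroke libraries held the highest shares of Sox4 and P4 low ones, overlapping adult control. Sox11 made up 49.8 to 55.9% in siRNA-labelled stroke, 44.2 to 46.1% in stroke, 81.0 to 94.97% in P4 and 52.9 to 67.0% in adult control. The sum of the SoxC levels averaged 9.50 ± 1.53 RPKM in siRNA-labelled stroke, 24.0 ± 5.76 in stroke, 109 ± 28.3 in P4 and 10.09 ± 2.43 in adult control (SD, n = 3 each). These shares were not tested, since they come from the same libraries the genes were chosen on.

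**Figure D2:**
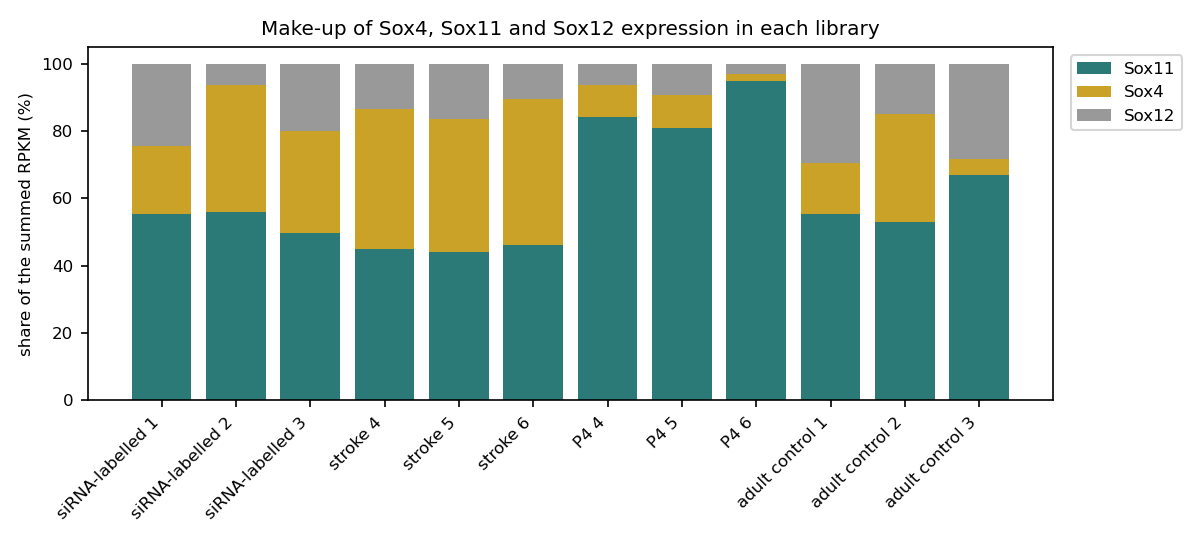
Share of the summed SoxC level per exonic length (RPKM, %) taken by Sox11, Sox4 and Sox12 in each of the 12 libraries, as stacked bars that start at 0. The 3 stroke bars have 39.4 to 43.5% Sox4, and the 3 P4 bars have 81.0 to 94.97% Sox11.

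Per exonic length, Marcks was the highest of the 10 genes on average in the adult groups, at 141 ± 85.5 RPKM in siRNA-labelled stroke, 224 ± 116 in stroke and 88.0 ± 45.6 in adult control (SD, n = 3 each). Second came Basp1 in siRNA-labelled stroke and adult control, at 49.2 ± 15.5 and 69.7 ± 44.4 RPKM, and Marcksl1 in stroke, at 96.3 ± 27.4 RPKM. The SDs of the first and second gene overlapped in each of these 3 groups, though within every library of them Marcks was the higher. In P4 the order was Basp1 (965 ± 1161), Cd24a (850.1 ± 492), Gap43 (501 ± 68.2) and Marcks (315 ± 256), neighbours that did not differ beyond their spread. The lowest were Draxin and Igfbpl1 in every adult group, at most 0.709 ± 0.226 RPKM, and Igfbpl1 in P4, at 6.18 ± 2.62 RPKM. Together the 10 genes took 0.0487 to 0.107% of all counts in siRNA-labelled stroke, 0.1003 to 0.205% in stroke, 0.472 to 1.12% in P4 and 0.0388 to 0.0762% in adult control.

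Counted together, 2 of the 10 genes rose in stroke against adult control (Marcksl1 and Igfbpl1), where 0.486% of all genes tested were called higher and 0.704% in either direction. Stroke libraries lay wholly above adult control in 5 genes (Marcks, Marcksl1, Igfbpl1, Draxin and Sox4), a separation seen in 11% of all genes. The median log2 fold change of the 10 genes was 1.35, against -0.08 over all genes. Taken from the authors' deposited table, 4 of the 10 had a false discovery rate under 0.05 in this comparison: Marcksl1, Igfbpl1, Draxin and Sox4, all higher in stroke. The authors' share over all genes at that rate was not counted, and the edgeR shares are no measure for it. The same 4 genes were called by DESeq2, which called 1240 of the 17909 genes in this comparison.

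In siRNA-labelled stroke against stroke, edgeR called none of the 10 genes and 1 gene in all (0.00558%). All 10 log2 fold changes were below 0, from -1.98 (Draxin) to -0.14 (Basp1), with a median of -1.31 against 0.04 over all genes. The Basp1 value turned positive without siRNA 3 (0.07) or stroke 6 (0.18). The siRNA-labelled libraries lay wholly below stroke in 7 genes (Gap43, Marcksl1, Igfbpl1, Draxin, Sox4, Sox11 and Sox12), against 8.11% of all genes. At an unadjusted p under 0.05 edgeR had 6 of the 10 genes, all lower, and 7.37% of all genes. Neither DESeq2 nor the authors' deposited table called any of the 10. This comparison shares the stroke libraries with the one above, so a high stroke library raises one value and lowers the other. In siRNA-labelled stroke against adult control, again none was called by edgeR (0.117% of all genes). With edgeR, 2 were at an unadjusted p under 0.05 (Marcksl1 and Igfbpl1, against 8.36% of all genes). DESeq2 called 1 of the 10 (Igfbpl1, adjusted p = 0.0224) and 333 genes in all. The siRNA-labelled libraries lay wholly above adult control in 2 genes (Marcksl1 and Igfbpl1), as in 6.35% of all genes, and the median was 0.23 against -0.02. For Igfbpl1 that separation rests on library size, with 2 raw counts in both siRNA 1 and adult control 1.

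In P4 against adult control, 8 of the 10 genes rose, where 6.32% of all genes were called higher and 16.8% in either direction. Marcks and Sox12 were not called. P4 lay wholly above adult control in 8 genes, all but Sox4 and Sox12, against 16.1% of all genes. The median log2 fold change was 3.88, against -0.16 over all genes. The authors' deposited table had 9 of the 10 higher in P4 at a false discovery rate under 0.05. Its share over all genes was not counted, and the edgeR shares are no measure for it. Stroke against P4 gave 6 genes called lower in stroke (Gap43, Basp1, Igfbpl1, Cd24a, Draxin and Sox11), where 7.94% of all genes were. In those 6 genes the stroke libraries lay wholly below P4, as in 21.7% of all genes, and 18.8% of all genes were called in either direction. The remaining members, Marcks, Marcksl1, Sox4 and Sox12, had log2 values from -1.15 to 0.27 and overlapping libraries in this comparison. Both P4 comparisons lie beside the shift of marker shares given above: in P4 against adult control, 12 of 12 oligodendrocyte markers and 15 of 16 microglia and macrophage markers fell, while 6 of 15 pan-neuronal markers rose. Their part in the 10 genes' levels was not tested.

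**Figure D3:**
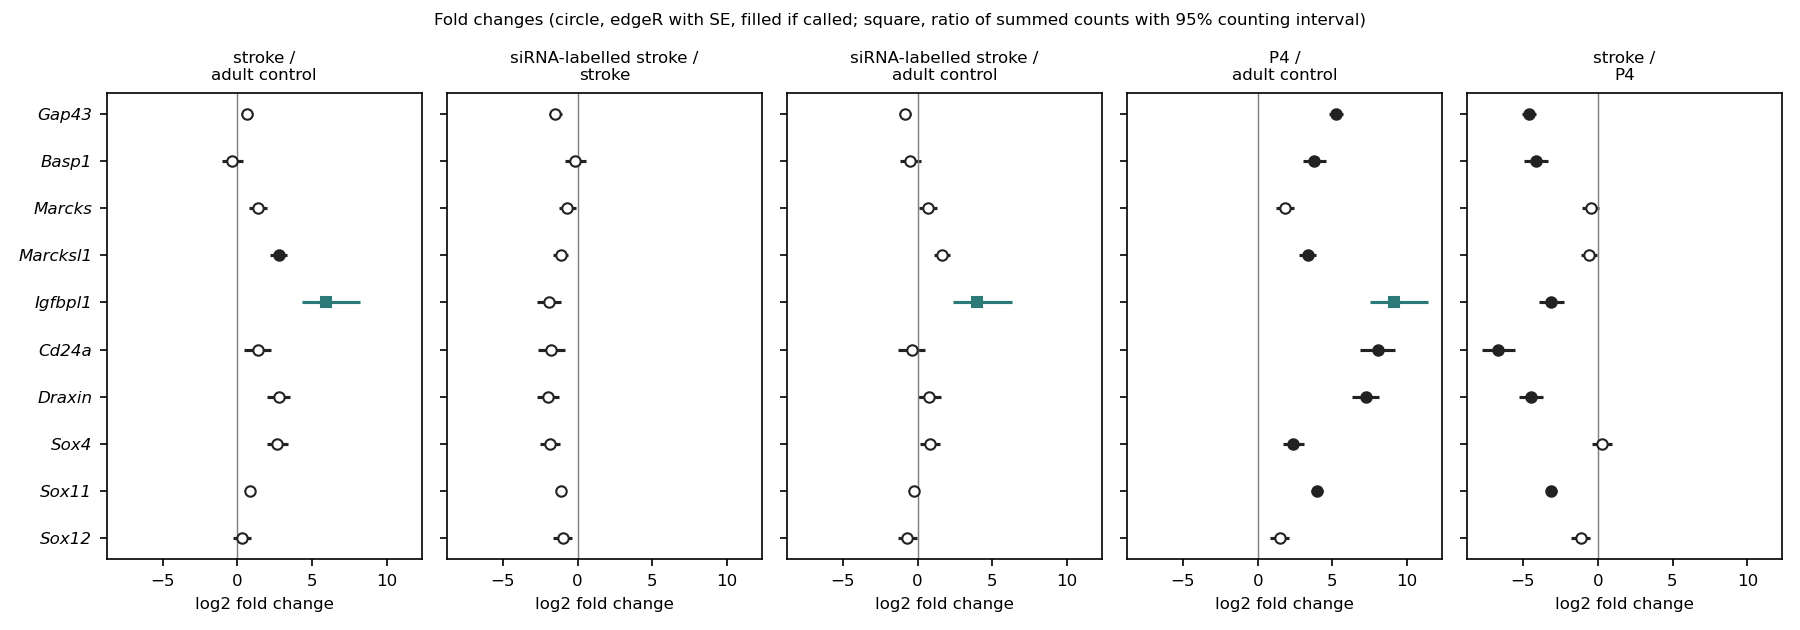
Log2 fold change of each gene in the 5 comparisons, the first named group over the second, from the edgeR fit with bars of 1 SE and filled where the adjusted p was under 0.05; squares give Igfbpl1 as a ratio of summed counts with its 95% counting interval where adult control had 3 counts. In siRNA-labelled stroke over stroke, all 10 values lie below 0 with none filled, and in P4 over adult control 7 circles are filled, with Igfbpl1, shown as a square, called too.

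Few of the genes that work beside these 10 were called in the adult comparisons. Of 29 other growth cone and axon growth genes, 1 rose in stroke against adult control: Tubb2b, a beta-tubulin of young neurons, at 57.9 ± 32.1 CPM in stroke, against 10.104 ± 4.94 CPM in adult control (log2 fold change 2.51, SE 0.52, edgeR adjusted p = 0.0381). The list's median was 0.32. Reads of Tubb2b and its near copy Tubb2a may be hard to separate. At an unadjusted p under 0.05 this comparison had 9 of the 29 growth cone genes and 15.9% of all genes. DESeq2 called 3 of the 29, and 1240 genes in all. By edgeR none of 21 protein kinase C, calmodulin and phosphoinositide partners was called (median -0.42, 5 at an unadjusted p under 0.05, 1 by DESeq2), the smallest p being that of Cap2, an actin regulator, at 49.7 ± 11.98 CPM in stroke, against 162 ± 91.9 CPM in adult control (adjusted p = 0.161). None of 25 immature neuron regulators was called (median -0.44, 7 at an unadjusted p under 0.05, 4 by DESeq2). Nor was any of 18 draxin receptors and insulin-like growth factor genes (median -0.01, 1 at an unadjusted p under 0.05, 0 by DESeq2). Neo1, a receptor of netrin and draxin, stood at 1034 ± 91.0 CPM in stroke, against 668 ± 158 CPM in adult control (adjusted p = 0.266).

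Between siRNA-labelled stroke and stroke, edgeR called no gene of these 4 lists, and the list medians were -0.34, -0.04, 0 and -0.36 in the same order. At an unadjusted p under 0.05 there were 6, 0, 2 and 1 genes, and DESeq2 called 1 growth cone gene and 1 of the draxin and insulin-like growth factor list. The smallest p among the growth cone genes were those of Tubb2b, at 15.6 ± 7.48 CPM in siRNA-labelled stroke and 57.9 ± 32.1 CPM in stroke (adjusted p = 0.466), and of Tuba1a, an alpha-tubulin of growing neurons, at 496 ± 386 CPM and 1875 ± 434 CPM (adjusted p = 0.549). Igf1, which encodes insulin-like growth factor 1, stood at 162 ± 157 CPM in siRNA-labelled stroke and 17.4 ± 3.05 CPM in stroke (adjusted p = 0.497). Against adult control, too, the siRNA-labelled group had no gene called in the 4 lists by edgeR or DESeq2, with 4, 0, 7 and 0 at an unadjusted p under 0.05.

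Against adult control, P4 differed in many growth cone genes and in fewer of the draxin and insulin-like growth factor genes. Of the 29 growth cone genes 20 rose and 3 fell in P4 against adult control, among them Dpysl3, a microtubule regulator of the growth cone, at 2682 ± 788 CPM in P4 and 88.0 ± 38.0 CPM in adult control (adjusted p = 1.27e-06). Stmn2, a tubulin-binding stathmin of axons, was at 1905 ± 351 CPM in P4 and 40.4 ± 21.6 CPM in adult control (adjusted p = 7.84e-06). Of the 25 immature neuron regulators 12 rose and 2 fell, with Dcx, the microtubule protein of migrating neurons, at 7120 ± 1801 CPM in P4 and 231 ± 247 CPM in adult control (adjusted p = 0.000163). The kinase, calmodulin and phosphoinositide partners had 6 that rose and 1 that fell, with Ppp3cb, a catalytic subunit of calcineurin, at 1104 ± 149 CPM in P4 and 245 ± 124 CPM in adult control (adjusted p = 0.00127). The draxin and insulin-like growth factor list was split, with 3 genes that rose and 3 that fell. The netrin receptor Unc5b fell to 5.11 ± 2.59 CPM in P4, against 112 ± 105 CPM in adult control (adjusted p = 0.000399), and its relative Unc5d rose to 194 ± 94.4 CPM in P4, against 39.4 ± 10.4 CPM in adult control (adjusted p = 0.00117).

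Markers of committed oligodendrocyte precursors, cells between the dividing precursor and the myelinating oligodendrocyte, were higher in stroke than in the other adult groups. The 9 markers, none of them among the 10 genes and none at 0 in any library, took 0.251 to 0.346% of counts in siRNA-labelled stroke, 0.614 to 1.05% in stroke, 0.0463 to 0.0613% in P4 and 0.114 to 0.290% in adult control. In stroke against adult control, 4 of the 9 rose (Bmp4 by 2.50, Bcas1 by 2.25, Enpp6 by 3.31 and Fyn by 2.42 on the log2 scale, edgeR adjusted p = 0.0208, 0.0191, 0.0298 and 0.00435), and the median of the 9 was 2.13. Over all genes, 0.486% were called higher there. The list was chosen with earlier results of these data known. With the siRNA label, against stroke, edgeR called none of the 9 (8 at an unadjusted p under 0.05, 3 by DESeq2), and all 9 values lay below 0 with a median of -1.54. In that comparison 7.37% of all genes had such an unadjusted p, and DESeq2 called 161 genes. Markers of the earlier oligodendrocyte precursor took 0.290 to 0.413% in siRNA-labelled stroke, 0.523 to 0.785% in stroke, 0.141 to 0.238% in P4 and 0.407 to 0.692% in adult control, with stroke and adult control overlapping. Markers of neural progenitors and neuroblasts took 0.0257 to 0.0407% in siRNA-labelled stroke, 0.0454 to 0.0532% in stroke, 0.614 to 0.853% in P4 and 0.0182 to 0.0754% in adult control. Of the 12 markers in this last list, 9 had a log2 fold change above 0 in stroke against adult control. Their median was 0.89, and edgeR called 0 of them. Within the list Eomes was at 0 in every siRNA-labelled stroke and stroke library and in adult control 2. Dlx2 was at 0 in adult control 1 and 3.

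**Figure D4:**
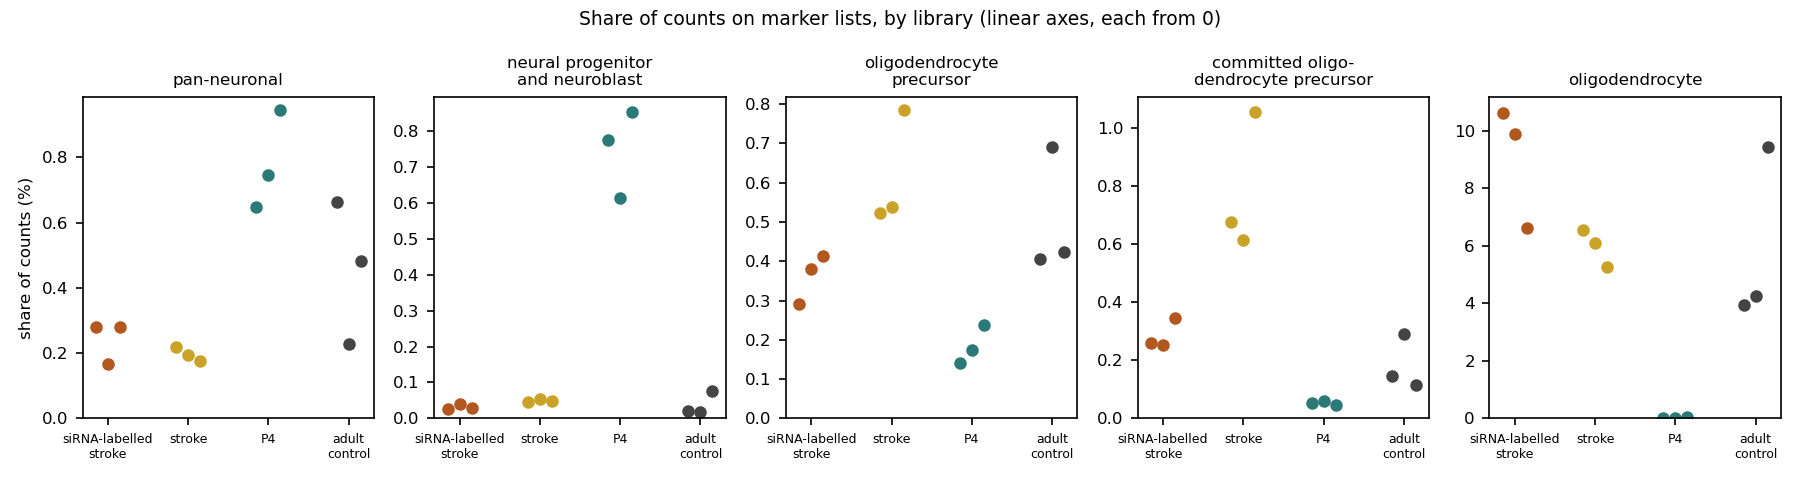
Share of all counts (%) on 5 lists of cell type markers in each library, with a point per library, 3 libraries a group and linear axes that start at 0. Committed oligodendrocyte precursor markers reach 0.614 to 1.05% in stroke, above siRNA-labelled stroke (0.251 to 0.346%) and adult control (0.114 to 0.290%), and oligodendrocyte markers are near 0 in P4.

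Set against these markers within each library, fewer of the 10 genes stood above adult control in stroke. The markers' own share was higher in stroke, at 0.782 ± 0.238% of counts in stroke and 0.183 ± 0.0941% in adult control (SD, n = 3 each), which lowers every gene's ratio there. Per 1000 counts on the committed precursor markers, Marcksl1 had 22.1 to 26.7 counts in siRNA-labelled stroke, 15.5 to 24.5 in stroke and 3.25 to 21.5 in adult control. Stroke then overlapped adult control. Sox4 had 3.41 to 6.98 counts per 1000 in siRNA-labelled stroke, 5.73 to 6.48 in stroke and 2.09 to 5.27 in adult control, so that stroke stayed above adult control, 5.27 being adult control 2. Igfbpl1 had 0.0459 to 0.351 in siRNA-labelled stroke, 0.145 to 0.495 in stroke and 0 to 0.0629 in adult control, again with stroke above adult control. Draxin, at 0.0524 to 0.528 in siRNA-labelled stroke, 0.203 to 0.370 in stroke and 0.153 to 0.334 in adult control, overlapped in all 3. Over the 10 genes, stroke lay above adult control in 2 (Igfbpl1 and Sox4), below it in 3 (Basp1, Sox11 and Sox12) and overlapped it in 5. Over all genes tested, 0.463% lay above and 55.1% below on this scale. The siRNA-labelled libraries overlapped stroke in 9 of the 10 genes and lay above it in Basp1, where 50.5% of all genes lay above.

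**Figure D5:**
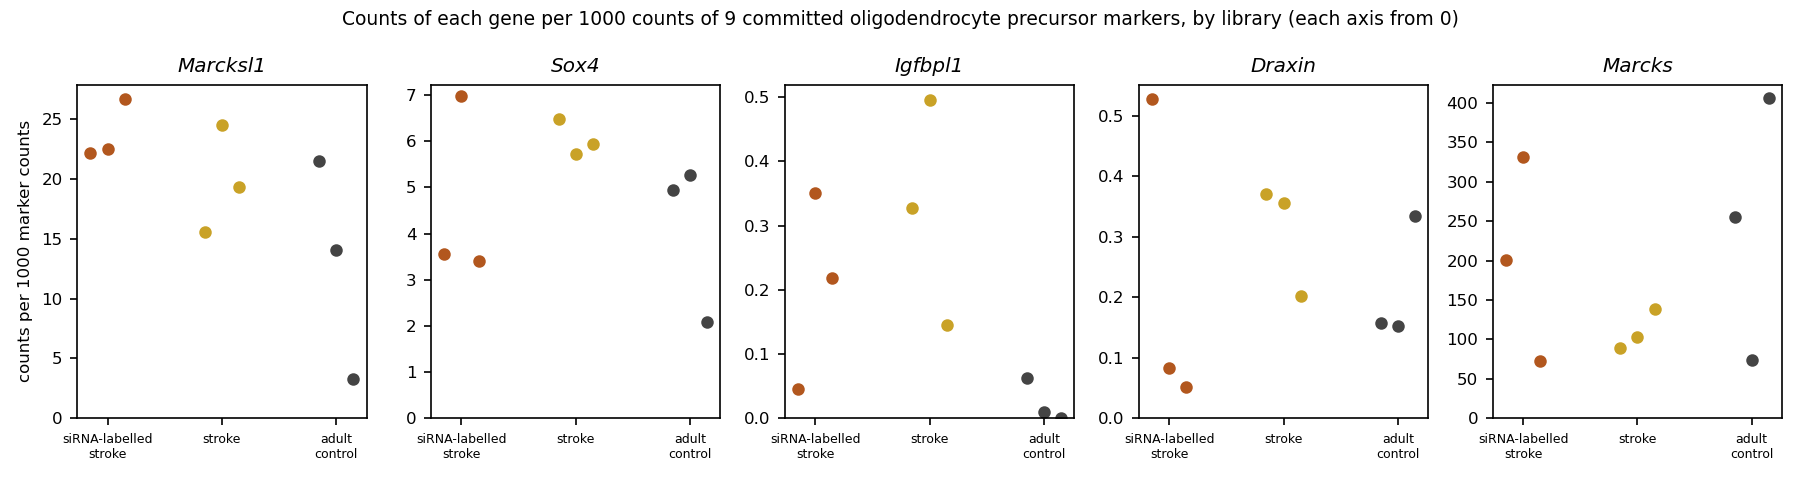
Counts of Marcksl1, Sox4, Igfbpl1, Draxin and Marcks per 1000 counts on 9 committed oligodendrocyte precursor markers in each adult library, with a point per library, 3 libraries a group and axes that start at 0. Sox4 and Igfbpl1 in stroke stay above adult control, while Marcksl1, Draxin and Marcks overlap.

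Set against the pan-neuronal markers, more genes stood apart. Per 1000 counts on these markers Marcksl1 had 20.5 to 33.6 counts in siRNA-labelled stroke, 48.0 to 116 in stroke and 0.766 to 17.9 in adult control, and Gap43 had 2.66 to 6.30, 9.49 to 20.1 and 4.21 to 5.56 in the same groups. Stroke lay above adult control in 8 of the 10 genes on this scale, against 18.3% of all genes, and siRNA-labelled stroke lay below stroke in 7, against 14.5%. The pan-neuronal share was itself lower in stroke than in adult control in every library, which raises such ratios. Per 1000 counts on the neural progenitor and neuroblast markers, stroke lay above adult control in 3 of the 10 genes (Marcksl1, Igfbpl1 and Draxin), against 0.927% of all genes. Marcksl1 had 232 to 418 counts in stroke, against 4.92 to 224 in adult control on that scale, while Sox4 overlapped, at 66.1 to 129 counts in stroke and 3.15 to 84.2 in adult control. Which of the 10 genes stood apart thus differed with the marker list. How far any cell type set the levels of the 10 genes was not tested.

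The genes whose profile over the 12 libraries was most like those of 3 of the members were found by the root mean square difference of log2 CPM, centred per gene. Those most like Gap43 were Nrep (0.63), Dpysl3 (0.66) and Dcx (0.69), against a median of 2.67 over all genes. Nrep stood at 39.0 CPM on average in siRNA-labelled stroke, 55.5 CPM in stroke, 1395 CPM in P4 and 29.7 CPM in adult control. For Marcksl1 they were Ckap4 (0.48), Nfil3 (0.50) and Zfp580 (0.51), against a median of 1.89. Ckap4 stood at 9.09 CPM in siRNA-labelled stroke, 19.9 CPM in stroke, 29.3 CPM in P4 and 4.36 CPM in adult control. For Sox11 they were Rimklb (0.43), Fam19a2 (0.46) and Ppp1r14c (0.46), against a median of 2.06. Among the 10 genes themselves, Sox4 was the nearest to Marcksl1 (0.92), and Gap43 and Sox11 were the nearest to each other (0.88).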

How the data were processed

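Per the submitters' processing notes, the tools were CASAVA 1.8.2 and edgeR and the genome build was mm10. How reads were aligned and counted, on which annotation and strand, is not given in the sources used here, so reads of overlapping or antisense genes cannot be told apart. Per the labels' protocols, RNA was amplified with the Ovation system and sequenced as paired 69 bp reads. The deposited table gave raw read counts per gene and library, which were the values tested. The authors' log2 fold changes and the authors' false discovery rates, a form of adjusted p-value, were only quoted. Another 30 columns of values per library were not used. The first P4 column carries P3 in its name and was matched by its number, 4.

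Counts were filtered with filterByExpr by group, scaled with TMM and fitted over all 12 libraries with edgeR 4.0.16 (quasi-likelihood test, R 4.3.3). P-values were adjusted by Benjamini-Hochberg over 17909 genes. The SE is the absolute log2 fold change over the square root of F. The procedure was also run on simulated counts drawn without a batch or an outlying library, and the outcome is not used as support here. RPKM used GENCODE vM21 exonic lengths; positions are those of RefSeq on the same build. Draxin has no chromosome in the table and was matched by symbol. Ratios to marker counts used raw counts within a library. Alternatives were DESeq2 1.42.0, other size factors, no filter, fits of 2 groups, each library left out and the replicate number as a block.

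The members, the 4 lists of related genes and the 12 marker lists were chosen with earlier results of these data known. Named from each other list, by rule, were at most the 3 genes with the smallest p among those called, or the 2 smallest where none was called, of which the text gives part; Bmp4, Bcas1, Enpp6 and Fyn are all the called markers of their list, and Eomes and Dlx2 were named after their values were seen.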

Additional observations from a re-analysis of the deposited data

How the results depend on the processing

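In stroke against adult control, where 2 of the 10 genes were called, the count was 0 in a fit of the 2 groups only, 4 with DESeq2, and from 0 to 3 on leaving out each library in turn. In the fit of 2 groups the adjusted p was 0.176 for Marcksl1 and 0.225 for Igfbpl1. Over all genes this comparison had 126 calls, 43 in the fit of 2 groups, 1240 with DESeq2, 31 without stroke 5 and 548 without adult control 2. For siRNA-labelled stroke against stroke the members' count was 0 in every alternative run, while calls over all genes were 1, 88 in the fit of 2 groups and 161 with DESeq2. Against adult control the siRNA-labelled count was 0, and 1 with DESeq2; calls over all genes were 21, 0 in the fit of 2 groups and 333 with DESeq2. In P4 against adult control it was 8, 9 with no filter on low counts, and 7 or 8 on leaving out a library; in stroke against P4 it was 6, and 5 or 6. Sox4 in P4 was not called in the fit of 2 groups (adjusted p = 0.107). DESeq2 gave Basp1 no adjusted p.

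Directions turned only on leaving out a library. The log2 fold change ran from -0.77 to 0.15 for Basp1 in stroke against adult control and from -0.38 to 0.18 in siRNA-labelled stroke against stroke. Against adult control the siRNA-labelled group gave -0.94 to 0.28 for Cd24a, -0.76 to 1.26 for Draxin and -0.37 to 0.12 for Sox11. In stroke against P4 it ran from -0.99 to 0.42 for Marcks and from -0.22 to 0.78 for Sox4, the sign turning without P4 6. None of these values was called. Other size factors moved the median of all genes from -0.08 to -0.19 in stroke against adult control and from -0.04 to -0.16 in stroke against P4, and turned no member's direction.

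Whether the replicate numbers pair the samples could not be decided from so few libraries. Same-number correlations were 0.064, -0.19 and -0.34 between siRNA-labelled stroke and adult control, where other pairs gave -0.32 to 0.48. Between stroke and P4 they were 0.16, 0.014 and 0.15, where other pairs gave -0.18 to 0.15. With the number as a block, 0 members were called in siRNA-labelled stroke against adult control and 6 in stroke against P4, where calls over all genes were 4567 with the block and 4789 without it.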
